A study of Mus musculus with 5 samples.

Results

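Pyruvate dehydrogenase is the mitochondrial enzyme complex that turns pyruvate into acetyl-CoA and so commits carbohydrate to oxidation. Pyruvate dehydrogenase kinases switch the complex off by phosphorylating its alpha subunit, and pyruvate dehydrogenase phosphatases switch it back on. In the heart, which burns mostly fatty acids, this switch is known for setting how much glucose is oxidised, and fasting and fatty acids are known to raise the kinase gene Pdk4. The 10 genes described here were taken by name, as the kinase genes Pdk1, Pdk2, Pdk3 and Pdk4, the phosphatase genes Pdp1, Pdp2 and Pdpr, the genes Pdha1 and Pdhb of the dehydrogenase component, and Mpc1 of the carrier that brings pyruvate into mitochondria. All 10 were found, each as 1 row, among the 49315 genes of the count tables, and all 10 had enough counts to be tested.

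The counts are from poly-A RNA sequencing of 5 mouse hearts, labelled as whole hearts of mixed cell type. For 18 weeks the mice of the 3 HFHS hearts had eaten a diet high in fat and sucrose, and those of the 2 chow hearts standard chow. Every mouse of both groups had been given a single intravenous dose of iron dextran, and 48 hours later the hearts were flushed with buffered saline, removed and frozen. No heart without iron is part of the comparison, so the values show the diets against each other under iron and not an effect of iron. The labels do not state strain, sex, age, iron dose or feeding state at collection, nor do they say that the libraries came from separate mice. P-values therefore measure only the spread between these libraries, which may be technical.

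Total counts ran from 14362766 to 16546113 in HFHS libraries and from 17331356 to 17774735 in chow libraries. Fat markers had at most 4 counts in any library and lung markers at most 2, of which Sftpc and Scgb1a1 had none. The summed heart muscle markers were 57607 to 60272 CPM, which are counts scaled to the size of the library, in HFHS hearts and 51233 to 57774 CPM in chow hearts, so those groups overlapped, and 3 of the 8 markers passed as higher and 3 as lower. Markers of other cells were lower in HFHS hearts: 7 of 7 fibroblast, 4 of 6 endothelial, 3 of 5 pericyte and smooth muscle, 7 of 7 macrophage and 5 of 5 red blood cell genes passed as lower and none as higher. The summed macrophage markers were 92.5 to 107.0 CPM in HFHS hearts and 194.4 to 211.6 CPM in chow hearts, and the summed endothelial markers 1115.8 to 1143.9 CPM in HFHS hearts and 1853.3 to 2056.7 CPM in chow hearts. Brown fat markers, Ucp1 and Cidea, summed to 21.9 to 25.3 CPM in HFHS hearts and 21.9 to 23.0 CPM in chow hearts. Skeletal muscle markers summed to 1374.1 to 1529.1 CPM in HFHS hearts and 1780.4 to 1798.1 CPM in chow hearts. Of their 3 tested genes, 1 passed as lower. In bulk tissue, fewer cells of a type and less RNA per cell cannot be told apart, and the part of these shifts in the results below was not tested.

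In HFHS hearts Pdpr, the regulatory subunit of the phosphatase, was 4.91-fold higher, and Pdk1, Pdk2, Pdp2 and Pdha1 rose by 1.27-fold to 1.45-fold. The call of Pdp2 was lost without HFHS replicate 1. Mpc1 was 1.32-fold lower, a call that was lost when the trend of fold changes on gene length was removed. Pdk3, Pdk4, Pdp1 and Pdhb did not pass. Thus 5 of the 10 genes were higher and 1 lower at a Benjamini-Hochberg adjusted p of 0.05 in edgeR's quasi-likelihood test, while 19.4% of the 14221 tested genes were higher and 18.7% lower. The values of the diets did not overlap for 7 of the 10 genes, as for 58.5% of all tested genes. The median log2 fold change of all tested genes was -0.012. Fold changes are HFHS over chow throughout.

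**Figure D1:**
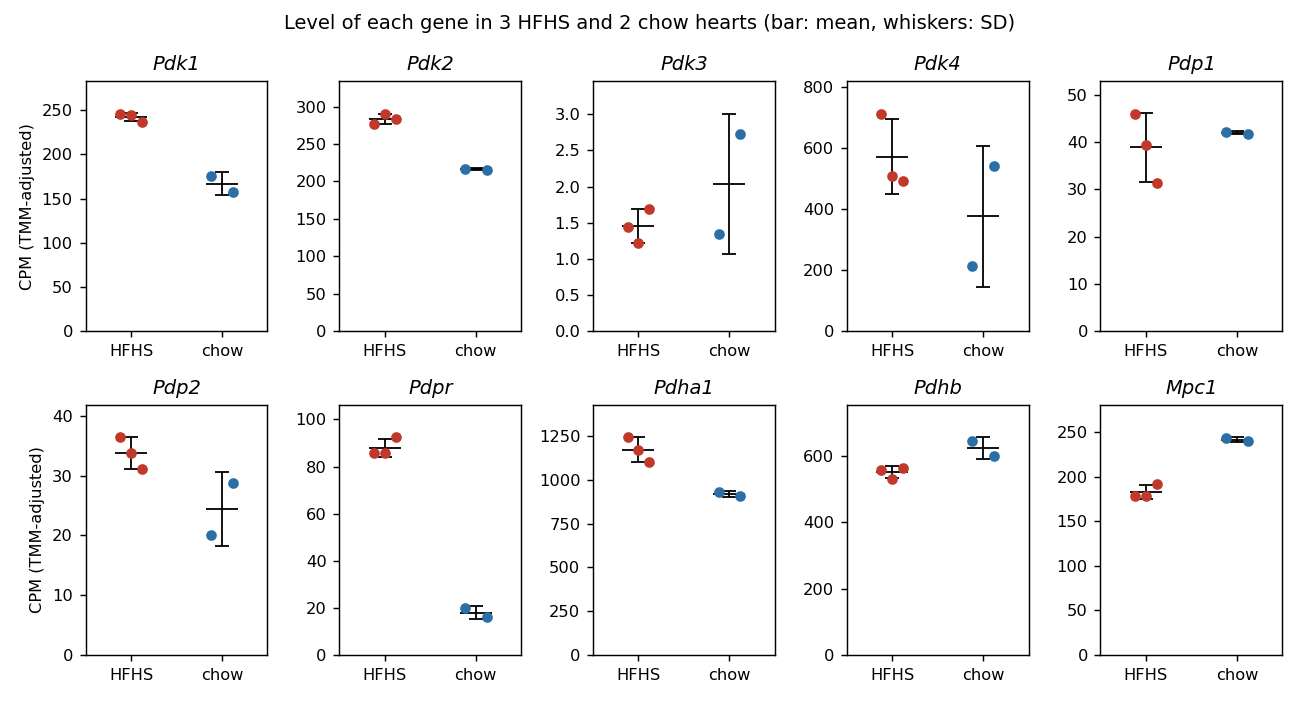
Level of each gene in CPM (vertical axes, each from 0) in 3 HFHS hearts (red points) and 2 chow hearts (blue points), with the mean as a bar and the SD as whiskers. The Pdpr values are 85.6 to 92.4 CPM in HFHS hearts and 16.0 to 19.8 CPM in chow hearts, and the 2 chow hearts lie far apart for Pdk4.

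Pdpr encodes a protein known to lower the sensitivity of the phosphatase catalytic subunit to magnesium. Its gene (ENSMUSG00000033624) lies on chromosome 8 from 111094630 to 111137074 on the plus strand (GRCm38). It had 85.6, 85.8 and 92.4 CPM in HFHS hearts, against 19.8 and 16.0 CPM in chow hearts. Every HFHS library was above both chow libraries, with a gap several times wider than the spread inside either group. The means were 87.9 ± 3.86 CPM in HFHS hearts (SD, n = 3) and 17.9 ± 2.66 CPM in chow hearts (SD, n = 2). The log2 fold change was 2.30 (SE 0.102, 95% interval 2.08 to 2.52) with an edgeR adjusted p of 7.15e-09. This was the 26th highest log2 fold change of the tested genes, and 0.26% of them had a larger one in either direction. The raw counts behind it were 1371, 1195 and 1367 in HFHS libraries and 365 and 288 in chow libraries. An antisense transcript, 9430091E24Rik, shares 169 exon bases with Pdpr and had 109 to 155 counts in HFHS libraries and 75 to 79 in chow libraries. The strand setting of the counting is not given, so reads of that stretch cannot be assigned, but all counts of the antisense gene together were fewer than those of Pdpr in every library.

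The 2 catalytic phosphatase subunits showed no such rise. Pdp1, the calcium-stimulated form known from muscle, had 46.0, 39.4 and 31.4 CPM in HFHS hearts and 42.2 and 41.7 CPM in chow hearts. The chow values lay inside the HFHS range, and the log2 fold change of -0.10 (95% interval -0.37 to 0.16) did not pass, with an edgeR adjusted p of 0.544. Pdp2, the form that does not respond to calcium, had 36.4, 33.8 and 31.1 CPM in HFHS hearts and 20.1 and 28.8 CPM in chow hearts. The HFHS hearts were above both chow hearts, but the chow hearts were uneven. Its log2 fold change was 0.47 (SE 0.132), with an edgeR adjusted p of 0.0127. That call was lost without HFHS replicate 1 (log2 fold change 0.41, edgeR adjusted p 0.065) and without chow replicate 1 (0.23, edgeR adjusted p 0.173), and without chow replicate 2 the log2 fold change was 0.75.

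Levels of different genes can be set side by side only per length, here as RPKM, which is the CPM divided by the gene's exon length in kilobases. On that scale Pdpr stood at 17.5 ± 0.767 in HFHS hearts (SD, n = 3), above Pdp1 at 8.64 ± 1.62 and Pdp2 at 5.93 ± 0.468, whereas in chow hearts it stood at 3.56 ± 0.529 (SD, n = 2), below Pdp1 at 9.30 ± 0.0802. In chow hearts the RPKM values of Pdpr and Pdp2 overlapped. The ratio of Pdpr to the sum of Pdp1 and Pdp2 was 1.03, 1.16 and 1.48 in HFHS libraries and 0.305 and 0.222 in chow libraries. So mRNA of the regulatory subunit exceeded that of both catalytic subunits together in each HFHS library and was the smaller amount in each chow library.

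The stretches upstream of Pdpr and of Pdk4 are shown because Pdpr had the widest separation of the diets among the 10 genes and Pdk4 the widest spread inside a diet group. They are RefSeq sequences of GRCm38.p6, 5′ to 3′ on the gene's strand, ending at the base before the outermost start annotated by RefSeq, GENCODE M21 or the count tables, with CG dinucleotides in capitals. The Pdpr stretch is chr8:111094495-111094629 (plus strand, 135 bases) and the Pdk4 stretch chr6:5496310-5496528 (minus strand, 219 bases).
Pdpr: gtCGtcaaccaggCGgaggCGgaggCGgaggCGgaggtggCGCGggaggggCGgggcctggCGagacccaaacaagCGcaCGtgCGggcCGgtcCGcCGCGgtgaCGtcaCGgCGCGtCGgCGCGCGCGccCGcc
Pdk4: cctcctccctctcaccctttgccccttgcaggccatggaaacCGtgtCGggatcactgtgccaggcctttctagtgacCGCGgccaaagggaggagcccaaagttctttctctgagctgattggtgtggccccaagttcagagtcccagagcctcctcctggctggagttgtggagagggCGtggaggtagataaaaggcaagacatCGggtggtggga

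The printed Pdpr stretch holds 26 CG dinucleotides and the longer Pdk4 stretch 6. Over the full 250 bases before the RefSeq start, Pdpr had 43 and Pdk4 had 6, where the median of 32851 mouse promoters was 6. Promoter sequences were found for 9 of the 10 genes, 12 in all. The PPAR and RXR direct repeat, the ERR site TCAAGGTCA, the FOXO site GTAAACA and the glucocorticoid receptor palindrome were searched on both strands of the 250 bases. None of the 12 windows held any of them, against 0.0335%, 0.387%, 3.17% and 0.00913% of all promoters in that order. No match says only that these letters are not in these windows.

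Among the kinases, Pdk2 and Pdk1 rose while Pdk4 did not pass. Pdk2 (ENSMUSG00000038967, chromosome 11 from 95026258 to 95041354), the most widely expressed kinase, had 276.9, 290.5 and 282.9 CPM in HFHS hearts and 217.1 and 215.5 CPM in chow hearts. The libraries of each diet lay close together and the groups were well apart, which gave a log2 fold change of 0.39 (SE 0.0682; edgeR adjusted p 0.000463). Pdk1 (ENSMUSG00000006494, chromosome 2 from 71873224 to 71903858), known as the kinase gene induced by low oxygen, had 245.9, 244.3 and 236.7 CPM in HFHS hearts and 175.8 and 157.8 CPM in chow hearts. Its log2 fold change was 0.54 (SE 0.0741), with an edgeR adjusted p of 6.67e-05. Pdk3, known mainly from testis and brain, had 17 to 25 counts in HFHS libraries and 25 to 49 in chow libraries. At this depth its log2 fold change of -0.48 had a 95% interval from -1.25 to 0.28, and an edgeR adjusted p of 0.311.

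Pdk4 (ENSMUSG00000019577, chromosome 6 from 5483351 to 5496309, minus strand) had 712.1, 508.8 and 493.1 CPM in HFHS hearts, against 212.8 and 540.1 CPM in chow hearts. Chow replicate 2 lay inside the HFHS range and chow replicate 1 far below it. The means were 571.3 ± 122.0 CPM in HFHS hearts (SD, n = 3) and 376.5 ± 231.0 CPM in chow hearts (SD, n = 2). The log2 fold change of 0.60 had a 95% interval from 0.04 to 1.17 and did not pass after adjustment, with an edgeR adjusted p of 0.0868. The value rests on which chow library is kept: it was 0.08 without chow replicate 1 (edgeR adjusted p 0.703) and 1.42 without chow replicate 2 (edgeR adjusted p 1.67e-06). The library of chow replicate 2 had 2.54 times the CPM of chow replicate 1, a ratio reached by 0.408% of the tested genes. Pdk4 also passed in limma-voom (log2 fold change 0.74, adjusted p 0.0416), but not with DESeq2. Without a filter on low counts its edgeR adjusted p was 3.05e-14 at a log2 fold change of 0.60, but that fit had infinite prior degrees of freedom, against 10.9 in the filtered fit, so it gave no weight to the spread of Pdk4 itself.

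Per exon length, Pdk4 was the most abundant kinase in all 3 HFHS hearts and in chow replicate 2, but not in chow replicate 1. It made up 62.9%, 53.9% and 53.8% of the summed kinase RPKM in HFHS libraries and 39.8% and 63.2% in chow libraries. Pdk2 made up 27.1%, 34.2% and 34.3% in HFHS libraries and 45.0% and 28.0% in chow libraries. With the median protein-coding transcript length instead, Pdk4 was ahead in chow replicate 1 too, at 44.4% against 40.9% for Pdk2. The summed RPKM of Pdk1, Pdk2 and Pdk3 was 119.7, 123.7 and 120.5 in HFHS libraries and 91.8 and 89.5 in chow libraries, so that without Pdk4 the kinase sum separated the diets and hardly varied inside them. With Pdk4 included, the sum was 322.5, 268.6 and 261.0 RPKM in HFHS libraries and 152.4 and 243.3 RPKM in chow libraries.

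**Figure D2:**
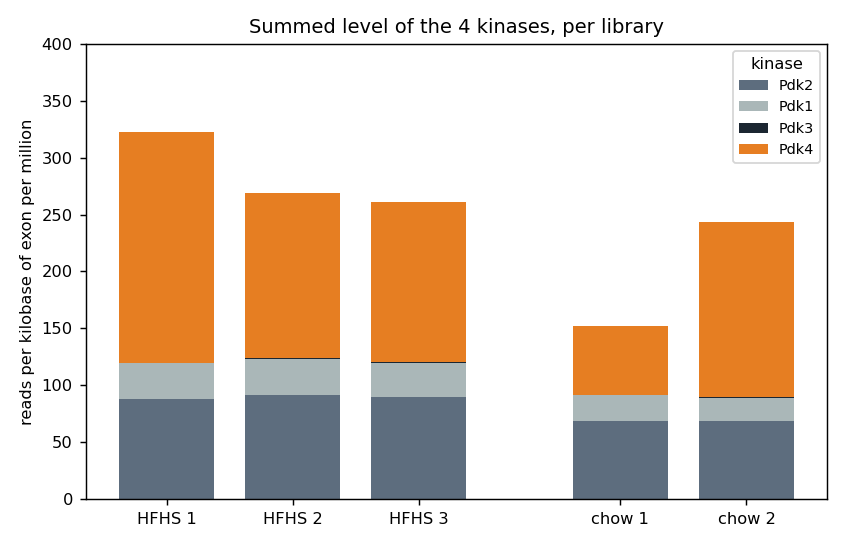
Stacked levels of the 4 kinase genes in RPKM (vertical axis) for each of 3 HFHS and 2 chow libraries. The Pdk2 and Pdk1 parts are taller in all HFHS libraries than in both chow libraries, while the Pdk4 part of chow replicate 2, at 153.8, lies between those of HFHS libraries 1 and 2, at 202.8 and 144.9.

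The dehydrogenase component is built from alpha and beta subunits, and of their genes Pdha1 rose and Pdhb did not pass. Pdha1, the alpha subunit that the kinases phosphorylate (ENSMUSG00000031299, chromosome X from 160122209 to 160138413, minus strand), had 1242.8, 1173.1 and 1103.6 CPM in HFHS hearts and 932.4 and 907.8 CPM in chow hearts. All HFHS libraries were above both chow libraries, which gave a log2 fold change of 0.35 (SE 0.0705; edgeR adjusted p 0.00135). Pdhb, the beta subunit, had 557.5, 529.3 and 563.4 CPM in HFHS hearts and 645.5 and 599.0 CPM in chow hearts. The HFHS libraries lay below the chow libraries, but the log2 fold change of -0.18 (95% interval -0.33 to -0.03) did not pass, with an edgeR adjusted p of 0.0547. With offsets for exon length and GC content, described below, both passed as higher, Pdha1 at 0.40 (edgeR adjusted p 0.000337) and Pdhb at 0.19 (edgeR adjusted p 0.0378). The ratio of Pdha1 to Pdhb in RPKM, from levels without those offsets, was 0.887, 0.881 and 0.779 in HFHS libraries and 0.574 and 0.603 in chow libraries. Pdhb has a near-identical processed pseudogene, Gm6123, with 6 to 9 counts per library, and Pdha1 shares 603 exon bases with the opposite-strand gene Map3k15, which had 11 to 22 counts.

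Mpc1, a subunit of the mitochondrial pyruvate carrier (ENSMUSG00000023861, chromosome 17 from 8282904 to 8297661), had 178.1, 178.2 and 191.6 CPM in HFHS hearts and 243.2 and 239.5 CPM in chow hearts. The HFHS libraries lay below both chow libraries, which gave a log2 fold change of -0.40 (SE 0.0699; edgeR adjusted p 0.000442). The call was lost in all 3 fits with length and GC offsets, at -0.15 with exon length, -0.20 with exon length and the replicate block, and -0.16 with transcript length (edgeR adjusted p 0.106, 0.0699 and 0.0974). Its processed pseudogene Mpc1-ps, 99.7% identical over 330 aligned bases, had 313 to 377 counts in HFHS libraries and 504 to 603 in chow libraries. How reads matching both were counted is not given, and with the counts of both summed the log2 fold change was again -0.40. Mpc1 also shares 480 exon bases with the opposite-strand gene 4930506C21Rik, which had 82 to 112 counts. Reads of that stretch cannot be assigned, since the strand setting is not given.

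In HFHS hearts the order of the genes by mean RPKM was Pdhb, Pdha1, Pdk4, Pdk2, Mpc1, Pdk1, Pdpr, Pdp1, Pdp2 and Pdk3. Pdhb stood at 370.4 ± 12.3 and Pdk3 at 0.566 ± 0.0917 (SD, n = 3). Only Pdk2 and Mpc1, at 89.6 ± 2.15 and 87.7 ± 3.75, were neighbours whose library values overlapped. In chow hearts the order was Pdhb, Pdha1, Mpc1, Pdk4, Pdk2, Pdk1, Pdp1, Pdp2, Pdpr and Pdk3, and the values of Mpc1 and Pdk4, Pdk4 and Pdk2, and Pdp2 and Pdpr overlapped. Pdpr was thus in the seventh place in HFHS hearts and in the ninth in chow hearts. Exon length counts every annotated exon of a gene, and with the median protein-coding transcript length instead, Pdha1 came before Pdhb and Mpc1 before Pdk2 in HFHS hearts, and Pdpr before Pdp2 in chow hearts.

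Fold changes in these libraries followed gene length: over all tested genes, the rank correlation of log2 fold change with exon length was 0.43, given as a description since genes share the libraries. Exon lengths here ran from 1485 bases for Pdhb and 2082 for Mpc1 to 7779 for Pdk1, with 5028 for Pdpr. With offsets for each library's smooth trend on exon length and GC content, the rank correlation was 0.0366 and 6 of the 10 genes were higher and none lower, where 15.9% of all tested genes were higher and 15.0% lower. Pdpr stayed at a log2 fold change of 2.22 (edgeR adjusted p 1.34e-08), Pdk2 at 0.46, Pdha1 at 0.40 and Pdk1 at 0.35. Mpc1 lost its call and Pdhb passed as higher, with the values given above. With transcript length in place of exon length Pdhb was at -0.03 (edgeR adjusted p 0.756). The direction of Pdhb and the fall of Mpc1 therefore depend on whether and how the length trend is removed.

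**Figure D3:**
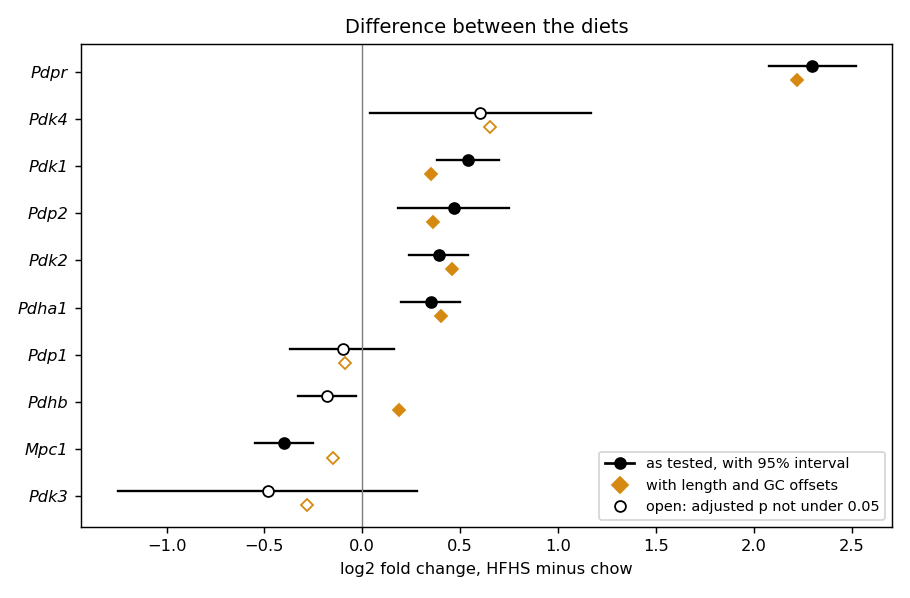
Log2 fold change of each gene, HFHS minus chow (horizontal axis), as tested with its 95% interval (black circles and lines) and with the length and GC offsets (orange diamonds). Filled symbols passed an adjusted p of 0.05. Pdpr lies apart at 2.30 and 2.22, Pdhb changes side from -0.18 to 0.19 with the offsets, and the Pdk4 interval runs from 0.04 to 1.17.

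The genes around the complex are given as 6 lists, whose counts stand against 19.4% of all tested genes higher and 18.7% lower (15.9% and 15.0% with the length and GC offsets). Of 3 tested genes of the other parts of the complex, 1 rose and none fell, with a median log2 fold change of 0.18, and the testis gene Pdha2 had no count. Dlat, the acetyltransferase core, had 413.6 to 423.6 CPM in HFHS hearts and 326.9 to 348.2 CPM in chow hearts, with a log2 fold change of 0.31 and an edgeR adjusted p of 0.00271. It did not pass with transcript length and GC offsets (0.12, edgeR adjusted p 0.156). Dld, the dihydrolipoamide dehydrogenase, was at 0.18 and did not pass (edgeR adjusted p 0.0588). It passed at 0.42 with the exon length and GC offsets (edgeR adjusted p 0.000579), but not with transcript length and GC offsets (0.18, edgeR adjusted p 0.056). Pdhx, which tethers that enzyme to the core, was at 0.07 and did not pass (edgeR adjusted p 0.468).

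Of 14 tested genes of pyruvate supply and its other fates, 5 rose, 2 fell and 7 did not pass, with a median of 0.12. The 2 that fell are a share near that of all tested genes, 18.7%. Mpc2, the partner of Mpc1 in the carrier, had 221.1, 209.1 and 238.5 CPM in HFHS hearts and 330.8 and 342.1 CPM in chow hearts, and was 1.51-fold lower with an edgeR adjusted p of 2.78e-05. Unlike Mpc1, it was still lower with the length and GC offsets, at -0.74 (edgeR adjusted p 6.87e-06). The monocarboxylate transporter gene Slc16a1, which carries lactate and pyruvate across the cell membrane, had 231.8 to 261.2 CPM in HFHS hearts and 176.1 to 176.8 CPM in chow hearts, a log2 fold change of 0.49 with an edgeR adjusted p of 0.000151. The malic enzyme gene Me1, whose product makes pyruvate from malate, was at 0.48 with an edgeR adjusted p of 0.000165.

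Of 9 genes of the related ketoacid dehydrogenases and their kinase and phosphatase, 6 rose and none fell, with a median of 0.32. These complexes have the same architecture and share Dld. Ogdh, of the oxoglutarate dehydrogenase complex in the citric acid cycle, had 2054.6, 2157.8 and 2010.0 CPM in HFHS hearts and 1002.5 and 1074.9 CPM in chow hearts, a log2 fold change of 1.00 with an edgeR adjusted p of 1.55e-07. Dlst, the core of that complex, was at 0.46 and Dbt, the core of the branched-chain complex, at 0.52, with edgeR adjusted p of 0.0002 and 0.00029.

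All these complexes need lipoate, a cofactor made by an iron-sulfur enzyme. Of 10 genes of lipoate supply, 1 rose, 3 fell and 6 did not pass, with a median of -0.26 that was -0.06 with the length and GC offsets. With those offsets 1 rose and 2 fell, near the shares of all tested genes, 15.9% and 15.0%. Bola3, an iron-sulfur transfer factor, had 69.8 to 74.7 CPM in HFHS hearts and 112.4 to 117.6 CPM in chow hearts, with a log2 fold change of -0.68 and an edgeR adjusted p of 8.49e-06. Glrx5, a mitochondrial glutaredoxin that passes on iron-sulfur clusters, was at -0.48 (edgeR adjusted p 0.000326). It was at -0.07 and did not pass with the exon length and GC offsets (edgeR adjusted p 0.512). With transcript length and GC offsets it passed as lower, at -0.41 (edgeR adjusted p 0.00111), so its call depends on the length used. Iba57, an assembly factor for such clusters, rose, at 0.69 with an edgeR adjusted p of 0.000786.

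Known transcriptional regulators of Pdk4 and other target genes of PPAR nuclear receptors were mostly higher in HFHS hearts. Of 15 regulators, 9 rose, 1 fell and 5 did not pass, with a median of 0.32. Ppara, the fatty acid-sensing receptor, had 33.0, 27.2 and 35.6 CPM in HFHS hearts and 8.39 and 8.33 CPM in chow hearts, with a log2 fold change of 1.93 and an edgeR adjusted p of 1.38e-07. The coactivator gene Ppargc1b was at 1.68 and the receptor gene Esrrg at 0.63, with edgeR adjusted p of 2.74e-06 and 5.18e-05. Of 16 other PPAR targets 11 rose, none fell and 5 did not pass, with a median of 0.50. Hadha and Cpt1b of fatty acid oxidation were at 0.88 and 1.27 and the acyl-CoA thioesterase gene Acot2 at 0.93, with edgeR adjusted p of 1.28e-06, 1.60e-06 and 7.28e-06.

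**Figure D4:**
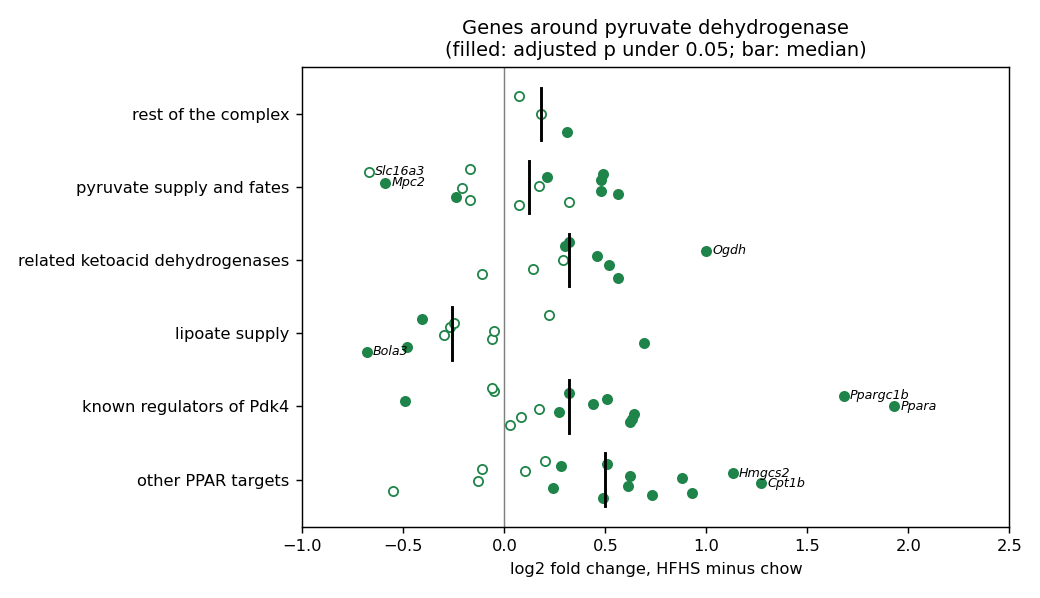
Log2 fold change, HFHS minus chow (horizontal axis), of the tested genes in 6 lists around pyruvate dehydrogenase (rows). Filled points passed an adjusted p of 0.05, open points did not, and the bar is the list's median, from -0.26 for lipoate supply to 0.50 for other PPAR targets.

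The gap between the chow hearts seen for Pdk4 was not shared by most of these targets. Ppara was alike in both chow hearts, and Hadha and Cd36 were each 1.01 times as high in chow replicate 2 as in chow replicate 1. The regulators of Pdk4 ran on that scale from 0.855 for Pparg to 1.39 for Ppargc1a, with Foxo3 at 1.32 and Esrrb at 1.28. Of the 16 targets, 10 were higher in chow replicate 2, as were 50.0% of all tested genes. The highest ratios were those of Angptl4 (1.70), Ucp3 (1.45) and Acot1 (1.43), named after their values were seen, all smaller than the 2.54 of Pdk4. Among the 10 genes described here, Pdk3 at 2.01, on 25 and 49 counts, and Pdp2 at 1.43 leaned the same way, and Pdpr was at 0.81.

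The tested genes most like Pdpr over the 5 libraries, by Euclidean distance of log2 CPM centred on each gene's mean, were the sodium-calcium exchanger gene Slc8a1 (distance 0.166), Gpam of triglyceride synthesis (0.202) and the cyclic GMP-dependent kinase gene Prkg1 (0.361). Prkg1 had only 20 to 119 counts per library, so its likeness to Pdpr is less certain. Slc8a1 had 141.8, 140.8 and 133.3 CPM in HFHS hearts and 29.9 and 25.1 CPM in chow hearts. Nearest to Pdk4 were Pcdhgc4 (0.217), Rapgefl1 (0.351) and Plagl1 (0.418), which had 6 to 21, 7 to 22 and 15 to 45 counts per library. These are so few that their likeness to Pdk4, which had 3931 to 11402 counts, is uncertain.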

How the data were processed

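The deposited values are raw counts per Ensembl gene, 1 table per library, with the exon coordinates and exon length of each gene per the file headers. Trimmomatic 0.36, STAR 2.5.2b, featureCounts of Subread 1.5.2 and GRCm38 are named in the submitters' processing notes, with no options; strand setting, treatment of reads with several matches and annotation release are not stated in the labels. Symbols were taken from GENCODE M21, also on GRCm38, which held 48970 of the 49315 gene IDs. The genes described, the lists and the rule for named genes (all 10 genes, the 3 smallest p of each list, and the 3 genes nearest to Pdpr and to Pdk4, predicted genes left out) were chosen with earlier results of these data known.

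From these counts, 3 HFHS libraries were compared with 2 chow libraries by the quasi-likelihood test of edgeR 4.0.16 (R 4.3.3), after filterByExpr and TMM scaling, with Benjamini-Hochberg adjustment over 14221 genes. Approximate standard errors and 95% intervals were derived from each coefficient and its F value. Library sizes in CPM and RPKM were TMM-adjusted; marker sums were divided by the total counts. RPKM uses the deposited exon length. The distance between genes adds 0.1 CPM before the log2. The test was repeated with other scaling factors and filters, with DESeq2 1.42.0 and limma-voom (limma 3.58.1), without mitochondrially encoded genes, without each library, with a replicate block, at an adjusted p of 0.01, and with offsets that remove a per-library trend on GC content and exon length (fitted with mgcv 1.9.3; GC was known for 99.8% of tested genes). Added after seeing the data were offsets on transcript length, transcript length in RPKM, and Mpc1 with its pseudogene. Near-identical copies were sought with BLAST 2.17.0 among GENCODE transcripts (at least 90% identity over 200 bases).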

Additional observations from a re-analysis of the deposited data

How the results depend on the processing

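Pdpr, Pdk1, Pdk2 and Pdha1 kept their direction and their call under every alternative run, with log2 fold changes of 2.15 to 2.46, 0.27 to 0.62, 0.35 to 0.48 and 0.29 to 0.43. Among the 10 and the listed genes together, 38 to 53 genes passed in either direction, against 45 as reported. The count of higher genes among the 10 was 4 to 6. The count of lower genes, 1 as reported, was 2 with upper-quartile factors, limma-voom, no filter or the replicate block, Pdhb being the gene added, and 0 with the length and GC offsets (with and without the replicate block) and 0 with transcript length and GC offsets. Leaving out 1 library gave 1 to 2 lower genes, the 2 being without chow replicate 2. Pdp2 also lost its call with transcript length and GC offsets (0.16, edgeR adjusted p 0.353) and at a threshold of 0.01. Pdhb was at 0.19 with the length and GC offsets and 0.17 with these and the replicate block. Pdp1 was at 0.03 with the replicate block, 0.04 with the block and offsets, and -0.24 to 0.03 without 1 library. Pdk3 ran from -0.90 to 0.10, Pcdhgc4 from -0.02 to 1.72 and Rapgefl1 from -0.10 to 1.57 without 1 library. The cause of these shifts was not tested. With transcript lengths the share of Pdk3 in the kinase RPKM was 0.152% in HFHS and 0.299% in chow hearts, and 6 genes in HFHS hearts held their place in the order of levels. Without 1 library 8 to 10 did in HFHS hearts and 6 to 8 in chow hearts.

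Deviations of same-numbered libraries from their group means had correlations of 0.0348 and 0.0258. With 2 chow libraries those deviations mirror each other, so the correlations cannot decide whether the numbers pair libraries. Replicate 3 exists only for HFHS, so a replicate block takes up that library, and its diet effect rests on replicates 1 and 2. With the replicate block 6 of the 10 genes were higher, and Pdk4 passed at 0.82 (edgeR adjusted p 2.91e-05), in a fit with 49 prior degrees of freedom and so less weight on each gene's own spread. With the block and the length and GC offsets, Pdk4 passed at 0.87 (edgeR adjusted p 0.00451). That fit had 20.8 prior degrees of freedom, against 10.9 in the main fit, so it also put less weight on that spread. Calls of the unfiltered fit rest on infinite prior degrees of freedom, with no such weight, and are no evidence of stability. With 2 chow libraries, 1 of them decides the values of Pdk4, Pdk3 and Pdp2.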
